A study of Mus musculus with 15 samples.

Results

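The 51 genes described here are interferon-stimulated genes, which cells switch on after interferons bind their receptors. The list was set by gene symbol, by a rule that uses no measured value but with earlier results of these data known, and all 51 symbols were found among the 19464 rows of a table of liver RNA sequencing. Sp110 stood on 2 rows, of which the row with reads was kept. Inside the list, the type I antiviral branch held the 10 measured Ifit, Oas and Mx genes, and the gamma-induced branch held the 7 Gbp, Irgm and Psmb genes. Total liver RNA was compared between wildtype mice and Stab1-/- mice, which lack stabilin-1 (Clever-1), a scavenger receptor of sinusoidal endothelial cells and macrophages, in every cell of the body. There were 4 wildtype and 4 Stab1-/- libraries from animals 2 weeks old, and 4 wildtype and 3 Stab1-/- libraries from fetuses at the embryonic stage E17.5. No animal was labelled as treated, and all 15 libraries were labelled with the same mixed background of C57BL/6N and 129SvJ. The methods of the study give the group sizes as numbers of mice, so the libraries of a group were taken as separate animals, and nothing in the labels ties a library to a litter.

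Type I interferons signal through the IFNAR receptor to a complex that holds STAT2 and IRF9 and binds the interferon-stimulated response element (ISRE) in promoters of antiviral genes. Interferon gamma signals through its own receptor to the gamma-activated site (GAS) and induces IRF1, immunity-related GTPases and the immunoproteasome. The branches overlap, since many of these genes answer to both kinds of interferon. In the liver, Kupffer cells, endothelial cells and hepatocytes can all respond, and before birth the organ also houses blood formation.

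Uniquely mapped reads counted on genes numbered 9659 to 10964 per library in units of 1000 reads. Stab1 had 68, 77, 119 and 82 reads in the Stab1-/- libraries and 766, 579, 822 and 941 in wildtype libraries at 2 weeks, and 361, 301 and 443 against 1337, 1244, 1448 and 1868 at E17.5. The labels were thus borne out by the targeted gene, although reads remained on it in every knockout library. Hepatocyte markers (6 genes such as Alb and Apoa1) were abundant in every group. Libraries of a group did not carry these genes at an even level. Within the 2-week Stab1-/- group, replicate 2 held the highest value for 28 of the 51 genes and replicate 1 for 17, and replicates 3 and 4 held the lowest value for 21 and 25. In the wildtype E17.5 group, replicate 4 held the lowest value for 40 genes, and in the Stab1-/- E17.5 group replicate 2 held the highest for 38.

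**Figure D1:**
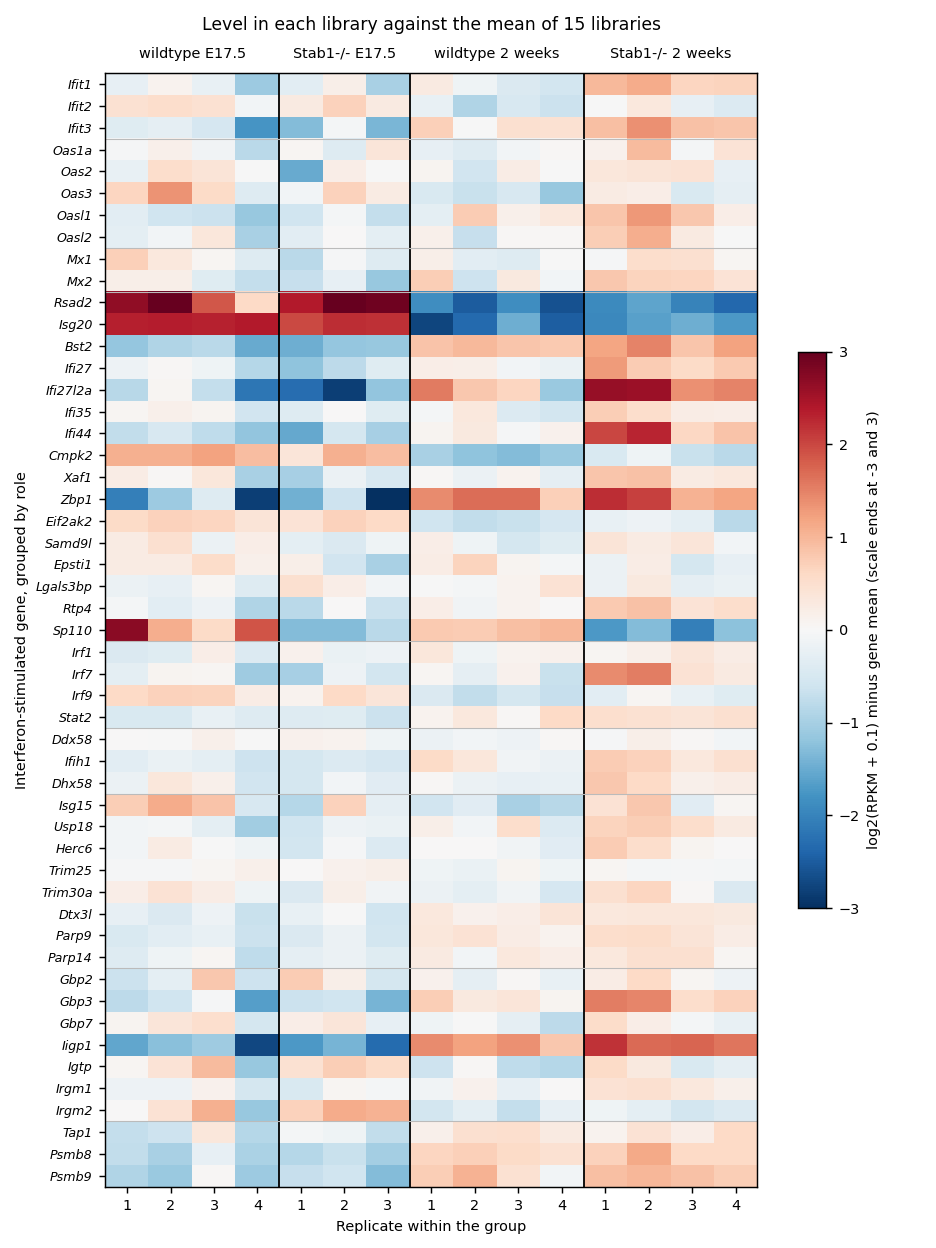
Heat map of the 51 genes (rows, grouped by role and separated by grey lines) in the 15 liver libraries (columns), coloured by log2(RPKM + 0.1) minus the mean of the gene over all libraries, where RPKM is reads per kilobase of gene scaled to the reads of the library. Rsad2 and Isg20 are high in all 7 E17.5 libraries, Iigp1, Zbp1 and Bst2 are high in all 8 libraries from 2 weeks, and replicates 1 and 2 of the 2-week Stab1-/- group are the reddest columns for Ifi44, Ifi27l2a and Irf7.

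Promoter windows, taken from RefSeq on GRCm38.p6 and reaching from 250 bases before to 50 bases after a transcript's start, were given for 39 of the 51 genes. They show how the promoters of the branches resemble each other in the letters that the interferon factors read. The ISRE core was searched as GAAANNGAA on both strands, and the GAS core as TTCNNNGAA, which reads the same on both strands. Neighbouring matches can share letters, within a motif and between the motifs. An ISRE core stood in 21 of the 39 genes (53.8%), against 9.76% of 27025 genes with such a window. A GAS core stood in 11 of the 39 (28.2%), against 9.55% of all. The type I antiviral branch had an ISRE core in 4 of 7 genes and a GAS core in 2 of 7, and the gamma-induced branch had them in 5 of 7 and 3 of 7. In these windows the ISRE core stood in either branch. Both motifs stood together in Oas1a of the type I branch, and also in Bst2, Eif2ak2 and Igtp, whose windows are not printed. The windows of 5 genes are printed on the gene's strand, 5′ to 3′, with every match in capitals, because Ifit1, Ifi44 and Isg15 stand for the antiviral genes and Gbp7 and Irgm2 carry both motifs. Ifit1 lies at chr19:34640639-34640938 (plus strand), Ifi44 at chr3:151749861-151750160 (minus strand), Isg15 at chr4:156200769-156201068 (minus strand), Gbp7 at chr3:142530086-142530385 (plus strand) and Irgm2 at chr11:58214727-58215026 (plus strand).
Ifit1: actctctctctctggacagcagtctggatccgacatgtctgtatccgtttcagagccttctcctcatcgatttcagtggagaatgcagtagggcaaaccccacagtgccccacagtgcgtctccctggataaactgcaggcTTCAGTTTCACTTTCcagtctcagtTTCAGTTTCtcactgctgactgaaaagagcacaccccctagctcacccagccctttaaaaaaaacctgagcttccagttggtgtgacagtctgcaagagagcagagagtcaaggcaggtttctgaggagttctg
Ifi44: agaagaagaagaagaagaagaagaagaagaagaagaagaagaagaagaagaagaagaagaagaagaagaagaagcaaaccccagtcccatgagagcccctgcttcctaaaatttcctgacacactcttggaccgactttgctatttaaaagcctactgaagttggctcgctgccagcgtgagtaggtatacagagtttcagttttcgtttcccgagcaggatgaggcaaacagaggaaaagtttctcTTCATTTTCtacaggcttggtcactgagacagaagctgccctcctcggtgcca
Isg15: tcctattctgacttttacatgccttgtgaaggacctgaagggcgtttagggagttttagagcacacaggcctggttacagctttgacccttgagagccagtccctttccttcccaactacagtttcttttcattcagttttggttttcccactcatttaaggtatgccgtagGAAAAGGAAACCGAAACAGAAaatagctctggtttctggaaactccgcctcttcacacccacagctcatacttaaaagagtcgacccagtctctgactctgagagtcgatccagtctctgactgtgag
Gbp7: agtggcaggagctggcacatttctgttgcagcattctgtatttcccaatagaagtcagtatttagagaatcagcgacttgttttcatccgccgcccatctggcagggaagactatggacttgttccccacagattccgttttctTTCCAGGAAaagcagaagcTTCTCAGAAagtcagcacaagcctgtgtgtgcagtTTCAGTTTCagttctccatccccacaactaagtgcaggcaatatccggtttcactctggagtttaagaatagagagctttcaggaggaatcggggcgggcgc
Irgm2: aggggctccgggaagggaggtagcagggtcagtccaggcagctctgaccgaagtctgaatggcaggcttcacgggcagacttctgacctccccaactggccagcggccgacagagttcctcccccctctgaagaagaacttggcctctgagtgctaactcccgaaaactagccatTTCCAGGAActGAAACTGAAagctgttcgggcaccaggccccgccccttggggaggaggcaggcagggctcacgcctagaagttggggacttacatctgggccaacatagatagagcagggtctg
In Ifit1, 3 matches to the ISRE core lay within the 109 bases before the start, and the first pair of them overlapped. Isg15 also had 3, which ran into each other from 78 bases before the start. Ifi44 had 1 match, across the start itself. Irgm2 had its GAS core 75 bases and its ISRE core 64 bases before the start. Gbp7 had 2 GAS cores and 1 ISRE core.

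Levels within the family spanned a wide range. In wildtype livers at 2 weeks the highest means on the RPKM scale were those of Iigp1, an immunity-related GTPase that acts on the vacuoles of intracellular parasites, and of Bst2 (tetherin), which holds budding virus particles at the cell surface. Their means were 115 ± 20.5 and 111 ± 6.52 RPKM (SD, n = 4), so that these neighbours in the order did not differ beyond their spread. Lgals3bp followed at 30.3 ± 4.89. At E17.5 the order was different, with Isg20, an exonuclease that degrades RNA, first in wildtype at 84.5 ± 2.09 RPKM, and Rsad2 (viperin), which makes a chain-terminating nucleotide, next at 55.3 ± 35.1. The spread of Rsad2 covered the gap between them. Mx1, Oas3 and Oasl1 had means of 1.49 RPKM or less in every group. The median of the 51 means was 5.97 RPKM in wildtype and 5.91 in Stab1-/- at E17.5, 5.93 in wildtype at 2 weeks and 7.64 in Stab1-/- at 2 weeks.

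The first comparison asked which of the genes differed between Stab1-/- and wildtype liver at 2 weeks. Ifit1, Ifi27 and Ifi44 were higher in Stab1-/- mice, and Sp110 was lower (edgeR's quasi-likelihood test, Benjamini-Hochberg adjusted p under 0.05). Errors of log2 fold changes are SE. The calls were 3 higher and 1 lower of 51 genes tested, or 5.88% and 1.96%, against a background of 0.936% higher and 1.74% lower among all 12716 rows tested. Most other members leaned the same way without passing. The fitted log2 fold change was above 0 for 44 of the 51, with a median of 0.35, against 48.0% above 0 and a median of -0.01 over all rows. It exceeded 0.5 for 17 of them, against 5.64% of all rows, and 23 reached an unadjusted p under 0.05, against 23.4% of all. In 14 genes every Stab1-/- library exceeded every wildtype library in RPKM, where the background share was 10.4%, and in 1 gene, Sp110, every one lay below, where it was 4.50%. Scaled by library totals alone, 4 members were higher and 1 lower, of 137 and 118 among all rows in place of 119 and 221.

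**Figure D2:**
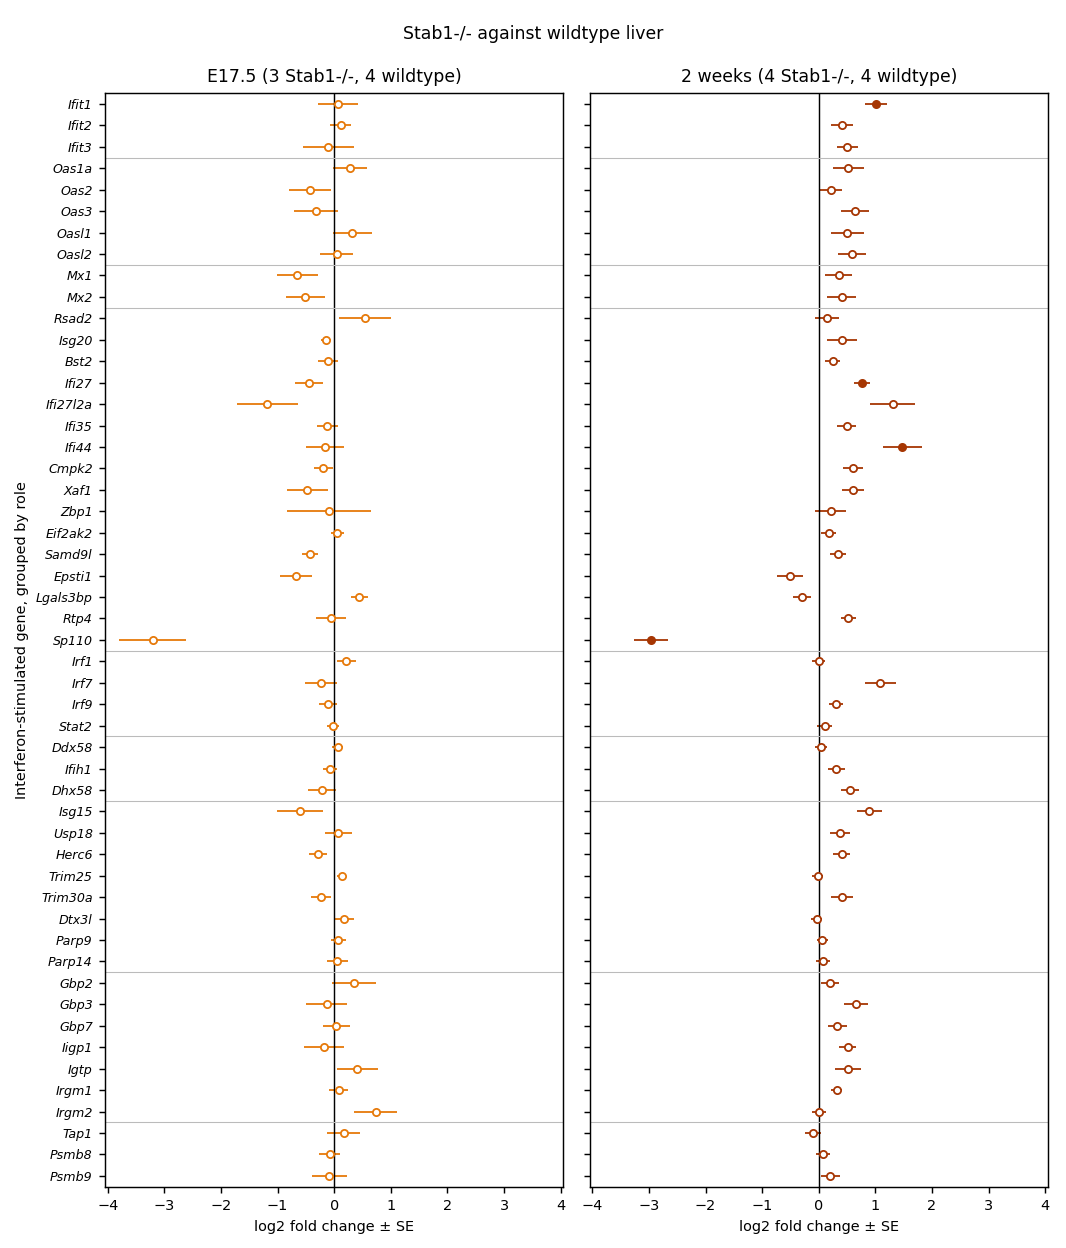
Fitted log2 fold change of Stab1-/- against wildtype liver (horizontal axis, bars ± SE) for each of the 51 genes, at E17.5 on the left and 2 weeks on the right, with filled circles for an adjusted p under 0.05. At 2 weeks 44 points lie right of 0 and Ifit1, Ifi27, Ifi44 and Sp110 are filled. At E17.5 21 points lie right of 0 and none is filled.

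Ifit1, whose product binds viral RNA that lacks the host cap, had 3.77, 4.16, 2.98 and 3.0 RPKM in the 4 Stab1-/- libraries and 2.25, 1.68, 1.36 and 1.24 in the wildtype libraries. The groups did not overlap, and the fitted fold was 2.01 (log2 fold change 1.004 ± 0.19, adjusted p = 0.019). The call was lost without Stab1-/- replicate 1 (adjusted p = 0.066), Stab1-/- replicate 2 (0.069) or wildtype replicate 3 (0.060). Ifi27, a small mitochondrial protein induced mainly by type I interferon, had 39.3, 27.6, 24.2 and 28.3 RPKM in Stab1-/- and 18.6, 18.3, 15.4 and 14.1 in wildtype livers. Every knockout value again lay above every wildtype value, at a fold of 1.69 (log2 fold change 0.76 ± 0.14, adjusted p = 0.019), and the adjusted p rose to 0.057 without wildtype replicate 3. Ifi44, an interferon-induced protein of uncertain function, had 4.83, 5.97, 1.81 and 2.15 RPKM against 1.21, 1.42, 1.1 and 1.25. Here replicates 1 and 2 of the knockout stood far above replicates 3 and 4, which still exceeded all wildtype values. The fold was 2.78 (log2 fold change 1.47 ± 0.34, adjusted p = 0.046), and the call was lost when any of Stab1-/- replicates 1 (adjusted p = 0.13) and 2 (0.11) or wildtype replicates 1 (0.073), 3 (0.11) and 4 (0.089) was left out. It was also lost with limma on log2(RPKM + 0.1), at an adjusted p of 0.066, with limma on log2(RPKM + 1), at 0.074, and with offsets for GC content, at 0.068.

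**Figure D3:**
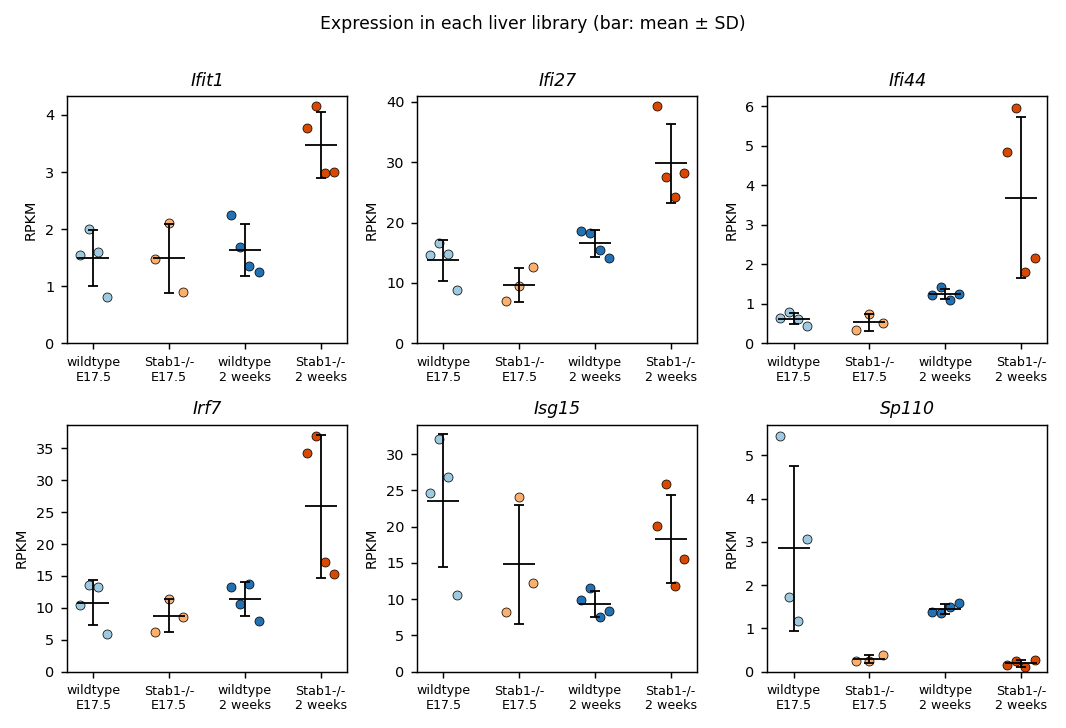
RPKM (vertical axis, starting at 0) of Ifit1, Ifi27, Ifi44, Irf7, Isg15 and Sp110 in each library of the 4 groups, with a black bar for the mean ± SD. In the 2-week Stab1-/- group the points of Ifi44 and Irf7 split into a high pair (replicates 1 and 2) and a lower pair, and Sp110 lies under 0.4 RPKM in all 7 knockout libraries.

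Sp110 encodes a nuclear body protein known for its part in macrophage control of intracellular bacteria, and its locus lies in a region of near-identical copies, so the unique reads counted on it are uncertain. The labels do not say which strain each mouse carried at this locus. It had 3, 5, 2 and 5 reads in the 2-week Stab1-/- libraries and 28, 26, 31 and 33 in wildtype, and 5, 5 and 8 against 114, 35, 25 and 64 at E17.5. All 7 knockout libraries stood below all 8 wildtype libraries. In RPKM the means were 0.192 ± 0.0738 and 1.45 ± 0.113 (SD, n = 4 and 4) at 2 weeks, a fitted 7.79-fold difference (log2 fold change -2.96 ± 0.30, adjusted p = 3.2e-04). At E17.5 the means were 0.292 ± 0.0825 and 2.85 ± 1.90 (n = 3 and 4), and the test did not pass (log2 fold change -3.20 ± 0.59, adjusted p = 0.068). The call at E17.5 was made by DESeq2 (adjusted p = 5.7e-06), by limma on log2(RPKM + 0.1) (0.036), by the fit with all 15 libraries (0.0046) and without wildtype replicate 3 (0.035). Reads covered 2.98% to 15.3% of the gene model in knockout and 41.2% to 85.2% in wildtype livers.

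The type I antiviral branch was next taken gene by gene at 2 weeks. All 10 members had a fitted log2 fold change above 0 (median 0.50, or 0.32 without Stab1-/- replicate 2), and 1 of the 10, Ifit1, passed the test. The other IFIT genes also encode RNA-binding proteins that restrain viral translation. Ifit2 had 2.64, 3.3, 2.2 and 1.98 RPKM in Stab1-/- and 2.25, 1.38, 1.88 and 1.66 in wildtype livers (log2 fold change 0.41 ± 0.19, adjusted p = 0.22), with overlapping groups. Ifit3 had 4.72, 6.62, 4.66 and 4.47 against 4.11, 2.47, 3.53 and 3.47, without overlap (log2 fold change 0.50 ± 0.19, adjusted p = 0.14). The OAS genes encode synthetases that make the oligoadenylate activating RNase L, or relatives of them that lack this activity. Oas1a, which has close copies beside it, stood at 1.34, 2.45, 1.15 and 1.63 RPKM in knockout and 1.01, 0.907, 1.15 and 1.24 in wildtype livers. For Oas2 the values were 2.2, 2.29, 2.35 and 1.43 against 1.83, 1.12, 2.04 and 1.69, with overlap. Oas3 gave 0.881, 0.862, 0.505 and 0.588 in Stab1-/- and 0.506, 0.427, 0.499 and 0.278 in wildtype, where the lowest knockout value lay just under the highest wildtype value. The OAS-like Oasl1 measured 1.48, 2.09, 1.46 and 0.919 in knockout and 0.63, 1.42, 0.886 and 1.02 in wildtype livers. Oasl2 reached 3.59, 4.55, 2.54 and 2.06 against 2.35, 1.25, 2.16 and 2.15, and its replicate 2 was the highest in the knockout and the lowest in wildtype. The log2 fold changes of the 5 OAS genes ran from 0.21 to 0.64, with adjusted p from 0.16 to 0.57. Mx1 and Mx2 encode dynamin-like GTPases that trap viral components. Mx1 had 0.63, 0.97, 0.933 and 0.67 RPKM in Stab1-/- and 0.742, 0.501, 0.468 and 0.641 in wildtype livers (log2 fold change 0.35 ± 0.24, adjusted p = 0.39). Mx2 had 2.09, 1.87, 1.83 and 1.56 against 1.97, 0.706, 1.43 and 1.08 (log2 fold change 0.41 ± 0.26, adjusted p = 0.36). Both groups overlapped for each Mx gene.

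In the gamma-induced branch, all 7 members likewise had a fitted log2 fold change above 0 at 2 weeks, with a median of 0.20 (0.36 without wildtype replicate 2, and 0.16 to 0.36 over all libraries left out in turn), and 0 of 7 passed the test by edgeR or DESeq2 (2 had an unadjusted p under 0.05). Guanylate-binding proteins coat the vacuoles of intracellular pathogens. Gbp2 had 5.91, 7.61, 5.24 and 4.53 RPKM in Stab1-/- and 5.49, 4.12, 5.14 and 4.29 in wildtype livers. Gbp3 showed the widest gap of the branch, with 10.4, 9.92, 5.14 and 5.8 against 5.94, 4.36, 4.57 and 3.77 (log2 fold change 0.66 ± 0.22, adjusted p = 0.11). Its knockout replicates 1 and 2 stood above, and replicates 3 and 4 among or near, the wildtype values. Gbp7 had 8.55, 6.7, 5.6 and 4.96 against 5.32, 5.83, 4.82 and 3.35. The IRGM proteins are regulators of the immunity-related GTPases. Irgm1 was at 34.2, 35.5, 31.8 and 28.1 RPKM in knockout and 23.6, 27.6, 21.4 and 25.4 in wildtype livers, without overlap (log2 fold change 0.31 ± 0.10, adjusted p = 0.11). Irgm2, whose gene model overlaps that of Igtp, was at 16.1, 14.4, 12.1 and 13.4 against 12.1, 14.6, 10.8 and 15, and its log2 fold change was 0.00 ± 0.13. Psmb8 and Psmb9 encode catalytic subunits of the immunoproteasome, which shapes peptides for MHC class I. Psmb8 had 29.8, 40.4, 27.9 and 28 against 29, 30.4, 27.6 and 25.5, and Psmb9 had 30.8, 33, 30.2 and 27.6 against 27.6, 33.9, 22.7 and 15.7. Their log2 fold changes were 0.07 ± 0.13 and 0.20 ± 0.17 (SE).

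The branches were then set against each other as levels. Per library, log2(RPKM + 0.1) was averaged over the members of a branch. At 2 weeks the type I mean was 1.01 ± 0.27 in Stab1-/- and 0.44 ± 0.18 in wildtype livers (SD, n = 4 and 4). The lowest knockout library (0.72) lay just above the highest wildtype library (0.65). RPKM here is scaled to library totals, and on this scale the median difference of all rows was 0.08, against -0.01 in the main fit. The part of that shift in the separation was not tested. The gamma-induced mean was 3.84 ± 0.23 against 3.50 ± 0.16, and here the lowest knockout library (3.61) lay under the highest wildtype library (3.64). The knockout exceeded wildtype by 0.57 in the type I mean and by 0.34 in the gamma-induced mean. With log2(RPKM + 1) in its place these differences were 0.37 and 0.30. The difference between the branches within a library, type I minus gamma-induced, was -2.83 ± 0.11 in Stab1-/- and -3.06 ± 0.25 in wildtype livers, with overlapping ranges of -2.95 to -2.70 and -3.43 to -2.89. Both branch means were thus higher in the knockout, and the difference between the shifts was within the spread between libraries. With wider branches of 17 type I members (adding Rsad2, Isg15, Irf7, Usp18, Cmpk2, Ifi44 and Rtp4) and 11 gamma-induced members (adding Igtp, Iigp1, Tap1 and Irf1), the median log2 fold changes were 0.52 and 0.20, and 2 of 17 and 0 of 11 passed by edgeR (4 of the 11 had an unadjusted p under 0.05). DESeq2 added Irf7, Isg15 and Rtp4 to the former and called Iigp1 in the latter. No p was computed for these scores.

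**Figure D4:**
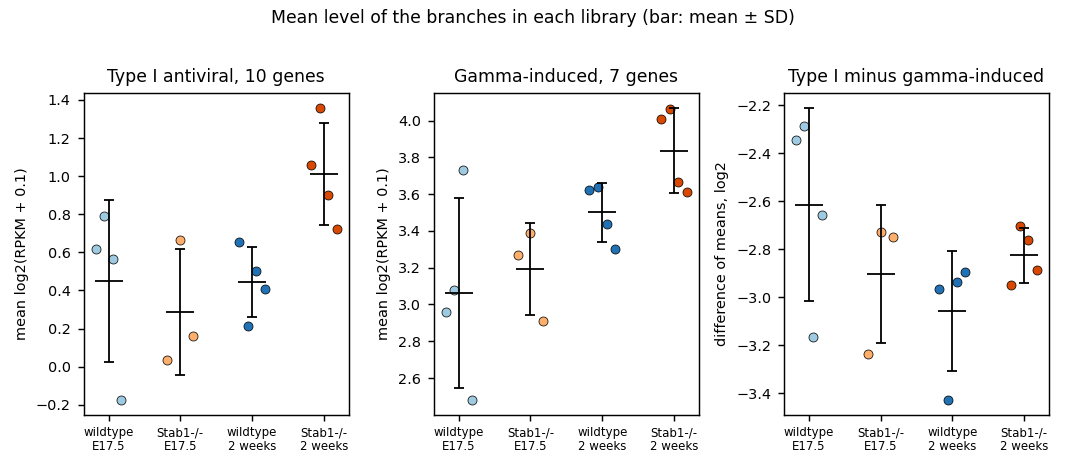
Mean of log2(RPKM + 0.1) over the 10 type I antiviral genes (left) and the 7 gamma-induced genes (middle), and the difference between these means (right), in each of the 15 libraries, with a black bar for the mean ± SD of a group. The type I points of the 2-week Stab1-/- group lie between 0.72 and 1.36, all above the 2-week wildtype points (highest 0.65), and the differences on the right overlap. On this scale the median difference of all rows at 2 weeks was 0.08.

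Among the remaining antiviral and interferon-induced members at 2 weeks, besides Ifi27, Ifi44 and Sp110, the largest fitted difference was that of Ifi27l2a, a relative of Ifi27. It had 56.1, 53.9, 23.7 and 25.4 RPKM in Stab1-/- and 26.8, 15.9, 14.1 and 4.09 in wildtype livers, with overlap and a wide error (log2 fold change 1.30 ± 0.40, adjusted p = 0.097). Cmpk2, a mitochondrial nucleotide kinase, had 2.46, 3.09, 2.09 and 1.88 against 1.66, 1.41, 1.32 and 1.52, without overlap (log2 fold change 0.60 ± 0.18, adjusted p = 0.085). Rtp4, a chaperone of receptors and antiviral factor, lay at 9.08 to 12.6 RPKM in knockout and 6.28 to 7.83 in wildtype livers (log2 fold change 0.52 ± 0.13, adjusted p = 0.058). Xaf1, Ifi35 and Samd9l had log2 fold changes of 0.60, 0.49 and 0.33, none of which passed. Rsad2, Isg20, Bst2, Zbp1, a sensor of left-handed nucleic acid, and Eif2ak2, the kinase PKR that halts translation, ranged from 0.14 to 0.41. Epsti1 and Lgals3bp had values of -0.51 ± 0.23 and -0.30 ± 0.16 (SE), which did not pass either.

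None of the 4 transcription factors and 3 RNA sensors that drive the response passed at 2 weeks by edgeR (2 and 1 had an unadjusted p under 0.05). Irf7, the factor that amplifies type I interferon production, had 34.2, 36.9, 17.2 and 15.3 RPKM in Stab1-/- and 13.3, 10.5, 13.8 and 7.95 in wildtype livers at 2 weeks. All 4 knockout values lay above the wildtype values, with replicates 1 and 2 well above the other pair, and the adjusted p was 0.053 (log2 fold change 1.09 ± 0.27). The study drew up a list, on these libraries, of genes significantly higher in the knockout by more than 2-fold. It includes Irf7 and Ifi27l2a, which did not pass here by edgeR, so their direction is not independent evidence. It does not include Ifit1, Ifi27 or Ifi44, which were called here. Irf9 and Stat2, parts of the type I complex, had log2 fold changes of 0.30 ± 0.12 and 0.10 ± 0.13, and the groups overlapped for Irf1, the gamma-induced factor (adjusted p = 0.99). Of the RNA sensors, Dhx58 (LGP2) did not overlap between groups (log2 fold change 0.55 ± 0.17, adjusted p = 0.09), while Ifih1 (MDA5) and Ddx58 (RIG-I) had log2 fold changes of 0.31 and 0.03. The calls at 2 weeks were 3 higher and 1 lower by edgeR and 7 higher and 1 lower by DESeq2, which added Iigp1, Irf7, Isg15 and Rtp4. Over all 12716 rows the calls were 119 higher and 221 lower by edgeR, and 429 and 458 by DESeq2.

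The ubiquitin-like modifier ISG15, which is attached to proteins during infection, stood at 20.1, 25.9, 11.8 and 15.5 RPKM in Stab1-/- and 9.86, 11.6, 7.47 and 8.31 in wildtype livers at 2 weeks, without overlap (log2 fold change 0.89 ± 0.22, adjusted p = 0.055). Usp18, which removes ISG15 and dampens IFNAR, and Herc6, which attaches it, had log2 fold changes of 0.38 and 0.40. Trim30a followed at 0.41 and Trim25 at -0.02. Dtx3l, Parp9 and Parp14, which act together in ADP-ribosylation, lay between -0.04 and 0.07. Dtx3l and Parp9 overlap in the genome, and the counting may not separate them. Among the GTPases outside the gamma-induced branch, Iigp1 had 222, 159, 165 and 149 RPKM in Stab1-/- and 131, 113, 128 and 86.2 in wildtype livers, without overlap (log2 fold change 0.51 ± 0.14, adjusted p = 0.077). Igtp had 0.52 ± 0.23 on the log2 scale. Tap1, the peptide transporter of MHC class I loading, had -0.10 ± 0.15.

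The ligands, receptors and regulators were looked at from fixed lists of pathway genes. Of 9 interferon ligands listed, the 3 found were close to absent. They had 2 reads on Ifnb1, 6 on Ifnk and 12 on Ifng over all 15 libraries, at most 3 in any library. Levels of so few reads cannot show a difference at this depth. The listed interferon alpha and lambda genes were not found under their symbols, so nothing is said of them. None of 5 receptor genes tested at 2 weeks passed by edgeR (1 had an unadjusted p under 0.05), and their summed level was 76.2 to 90.1 RPKM in Stab1-/- and 77.7 to 90.2 in wildtype livers. Of 5 negative regulators tested, 1 fell, namely Cish, a SOCS family inhibitor of cytokine receptors known from growth hormone signalling (log2 fold change -1.40 ± 0.30, adjusted p = 0.032). Of 11 nucleic acid sensing genes and 5 further gamma-induced targets, such as the chemokine Cxcl9, 0 passed (2 and 2 had an unadjusted p under 0.05).

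Markers of other cells were measured beside these results. In bulk liver RNA, fewer cells of a type and less RNA per cell cannot be told apart. Of the granulocyte markers, 6 of 7 were found, and none of the 5 tested passed at 2 weeks by edgeR (4 had an unadjusted p under 0.05). Their summed level was 185 to 419 RPKM in Stab1-/- and 29.7 to 144 in wildtype livers, without overlap. All 5 tested had a fitted log2 fold change above 0 (median 1.26). The study's list of genes significantly higher in these knockout livers includes S100a8, S100a9 and Camp. Of the Kupffer cell and macrophage markers, 8 of 9 listed symbols were found, where Adgre1 and Emr1 name the same gene, found as Emr1. Of these, 0 of 8 passed (2 had an unadjusted p under 0.05), with sums of 320 to 423 against 242 to 359 RPKM. Sums over the 7 monocyte and dendritic cell markers were 4.42 to 6.46 against 3.84 to 5.27, and over the 10 T and NK cell markers 10.97 to 14.6 against 9.72 to 12.0. Of the 6 sinusoidal endothelial markers, 1 fell, the VEGF receptor Kdr (log2 fold change -0.43 ± 0.10, adjusted p = 0.048), and the sums were 140 to 152 against 133 to 163. Hepatocyte markers were lower in sum in Stab1-/- livers, at 55305 to 70963 against 71611 to 91507 RPKM, without overlap. All 6 had a fitted log2 fold change below 0 (median -0.29), and 0 passed by edgeR (2 had an unadjusted p under 0.05). No marker found was at 0 in all libraries. Their part in the interferon results was not tested.

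At E17.5 the same comparison gave no call for the 51 genes by edgeR, where the background was 0.194% higher and 0.172% lower of 13388 rows. Unadjusted p was under 0.05 for 4 genes, against 12.9% of all rows, DESeq2 called 1 (Sp110), limma on log2(RPKM + 0.1) called the same gene, and limma on log2(RPKM + 1) called 0. Over all 13388 rows, lower calls numbered 112 by DESeq2 and 46 and 43 by limma. The fitted log2 fold change was above 0 for 21 genes, with a median of -0.09, against 50.3% above 0 and a median of 0.00 over all rows. Scaling by library totals turned the calls over all rows from 26 higher and 23 lower to 22 and 32, and again called no member. In 0 genes did every knockout library exceed every wildtype library (background 2.91%), and in 2 genes, Isg20 and Sp110, every one lay below (background 9.30%). Isg20 had 65, 77.6 and 75.9 RPKM in Stab1-/- and 83.2, 85.7, 82.2 and 86.7 in wildtype livers (log2 fold change -0.15 ± 0.09, adjusted p = 0.49). Several marker sums were lower in the knockout at this age without overlap. They were 3516 to 3837 against 5000 to 8169 RPKM for the granulocyte list, 20.8 to 22.4 against 27.1 to 31.5 for monocytes and dendritic cells, 84.5 to 104 against 113 to 124 for the pan-leukocyte list, and 10.5 to 12.3 against 12.7 to 15.4 for T and NK cells. None of the markers tested in these lists passed by edgeR (3 of 6, 3 of 5, 2 of 3 and 1 of 4 had an unadjusted p under 0.05). The study's own list of genes higher in the knockout at E17.5 includes Alpi and Fabp2, which it describes as intestinal. The part of these genes and of the markers in the values of the 51 genes was not tested.

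The type I antiviral members at E17.5 had a median log2 fold change of -0.03, with 5 of 10 above 0 and 0 of 10 passing (0 with an unadjusted p under 0.05). Ifit1 had 1.48, 2.1 and 0.894 RPKM in the 3 Stab1-/- libraries and 1.55, 1.99, 1.59 and 0.815 in the 4 wildtype libraries. Ifit2 measured 3.2, 4.31 and 3.2 against 3.69, 3.88, 3.7 and 2.51. Ifit3 was at 0.951, 2.39 and 0.897 against 1.91, 2.06, 1.73 and 0.655. In all 3 IFIT genes, replicate 2 was the highest knockout library and replicate 4 the lowest wildtype library. Oas1a had 1.26, 0.911 and 1.6 RPKM in knockout and 1.18, 1.37, 1.11 and 0.643 in wildtype. Oas2 had 0.54, 2.0 and 1.7 against 1.46, 2.52, 2.28 and 1.71, and Oas3 had 0.685, 1.24 and 0.88 against 1.2, 2.01, 1.14 and 0.535. Oasl1 gave 0.492, 0.765 and 0.444 against 0.612, 0.496, 0.472 and 0.308, and Oasl2 gave 1.67, 2.1 and 1.68 against 1.69, 1.98, 2.68 and 1.01. These groups overlapped throughout. Mx1 had 0.325, 0.624 and 0.469 RPKM in Stab1-/- and 1.13, 0.833, 0.68 and 0.465 in wildtype livers (log2 fold change -0.65 ± 0.36, adjusted p = 0.47). For Mx2 the values were 0.665, 0.945 and 0.466 and 1.3, 1.3, 0.864 and 0.654 (log2 fold change -0.51 ± 0.35, adjusted p = 0.55). The branch median moved to -0.45 without Stab1-/- replicate 2 and lay between -0.45 and 0.11 when any library was left out. Ifi44, called at 2 weeks, had 0.326, 0.754 and 0.518 RPKM in Stab1-/- and 0.637, 0.788, 0.626 and 0.449 in wildtype livers at E17.5, with overlap.

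The gamma-induced members at E17.5 had a median of 0.04 (between -0.14 and 0.19 when a library was left out, and below 0 without Stab1-/- replicate 2 or wildtype replicate 4), with 4 of 7 above 0 and 0 of 7 passing (0 with an unadjusted p under 0.05). Gbp2 had 8.58, 5.72 and 3.44 RPKM in Stab1-/- and 3.16, 4.07, 8.86 and 3.22 in wildtype livers. Gbp3 had 2.23, 2.28 and 1.29 against 2.01, 2.28, 3.46 and 1.06, and Gbp7 had 6.7, 7.58 and 4.93 against 6.16, 7.49, 8.35 and 4.01. In wildtype, replicate 3 held the highest value of all 3 Gbp genes. Irgm1 was at 18.6, 26.3 and 24.2 in knockout and 22.7, 22.9, 27.7 and 17.6 in wildtype. Irgm2 was at 28.7, 38.3 and 36.6 against 17.9, 23.9, 37 and 7.95, a log2 fold change of 0.73 ± 0.38 that rested on overlapping groups (adjusted p = 0.45). Psmb8 stood at 10.2, 11.6 and 9.02 and 11, 9.39, 15.4 and 9.55, and Psmb9 at 10.1, 10.9 and 6.67 and 8.76, 7.6, 16.9 and 7.65. As levels, the type I mean of log2(RPKM + 0.1) was 0.29 ± 0.33 in Stab1-/- (n = 3) and 0.45 ± 0.43 in wildtype livers (n = 4), and the gamma-induced mean 3.19 ± 0.25 and 3.06 ± 0.52 (SD). Type I minus gamma-induced was -2.90 ± 0.29 and -2.61 ± 0.40, again with overlap.

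Whether the genotype effect differed between the ages was tested with an interaction term over all 15 libraries. It was larger at 2 weeks for 1 of the 51 genes, Ifi27, and smaller for 0 (DESeq2 called 5 larger, namely Ifi27, Ifi44, Irf7, Isg15 and Samd9l, and 1 smaller, Lgals3bp). The background by edgeR was 0.799% larger and 1.01% smaller of 13885 rows. By the same test 16 members had an unadjusted p under 0.05, against 23.2% of all rows. DESeq2 called 448 larger and 618 smaller among all 13885 rows. Granulocyte markers had positive values in this test as well. The difference was above 0 for all 6 (median 1.40), and 3 passed, S100a8, S100a9 and Camp, which encode proteins of neutrophil granules and cytosol. Of the 5 monocyte and dendritic cell markers tested, 1 passed with a larger effect, the monocyte receptor Ccr2, but only 2 were above 0 (median -0.25). Of the 6 sinusoidal endothelial markers, 1 passed with a smaller effect and 2 were above 0 (median -0.33). The part of all these markers in the result was not tested. Ifi27 had 7.04, 9.44 and 12.6 RPKM in Stab1-/- and 14.6, 16.6, 14.8 and 8.88 in wildtype livers at E17.5, below or among the wildtype values, against the complete separation upward at 2 weeks. The difference of the log2 fold changes was 1.23 ± 0.30 (SE, adjusted p = 0.048). This call rested on most of the libraries, since the adjusted p lay between 0.055 and 0.13 when any of 11 libraries was left out, namely each of the 4 Stab1-/- libraries and wildtype replicates 3 and 4 at 2 weeks, and Stab1-/- replicates 1 and 2 and wildtype replicates 1, 2 and 3 at E17.5. The interaction value was above 0 for 43 of the 51 genes (50.6% of all rows), with medians of 0.65 in the type I and 0.26 in the gamma-induced branch. Scaling by library totals moved the median of all rows by 0.12 and that of the 51 genes from 0.39 to 0.51, and turned the calls over all rows from 111 larger and 140 smaller to 209 and 83.

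The ages were compared within each genotype. Called in either direction were 60.8% of the members in wildtype, against 71.9% of all rows, and 72.0% in Stab1-/- livers, against 72.5%, so the share that changed with age was no higher than the background. In wildtype livers 23 of 51 genes rose and 8 fell, or 45.1% and 15.7%, against a background of 34.9% rising and 37.0% falling among 13369 rows. In Stab1-/- livers 31 of 50 tested rose and 5 fell, against 35.7% and 36.8% of 13433 rows. Sp110 had too few reads there to be tested. The ages differ in the makeup of the organ. The summed level of 7 erythroid markers was 10935 to 12108 RPKM in wildtype E17.5 livers and 149 to 360 RPKM at 2 weeks, that of 6 granulocyte markers 5000 to 8169 and 29.7 to 144, and that of 6 hepatocyte markers 47618 to 52358 and 71611 to 91507. The part of these shifts in the age results was not tested. Scaled by library totals alone, the median log2 fold change of all rows in wildtype moved from -0.01 to -0.38, and 16 members rose and 10 fell, of 3104 and 6834 among all rows in place of 4667 and 4948. In Stab1-/- livers it moved from -0.01 to -0.24, and 30 members rose and 7 fell, of 3758 and 5944 in place of 4791 and 4945. Of the called members, Trim25 changed direction under this scaling.

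**Figure D5:**
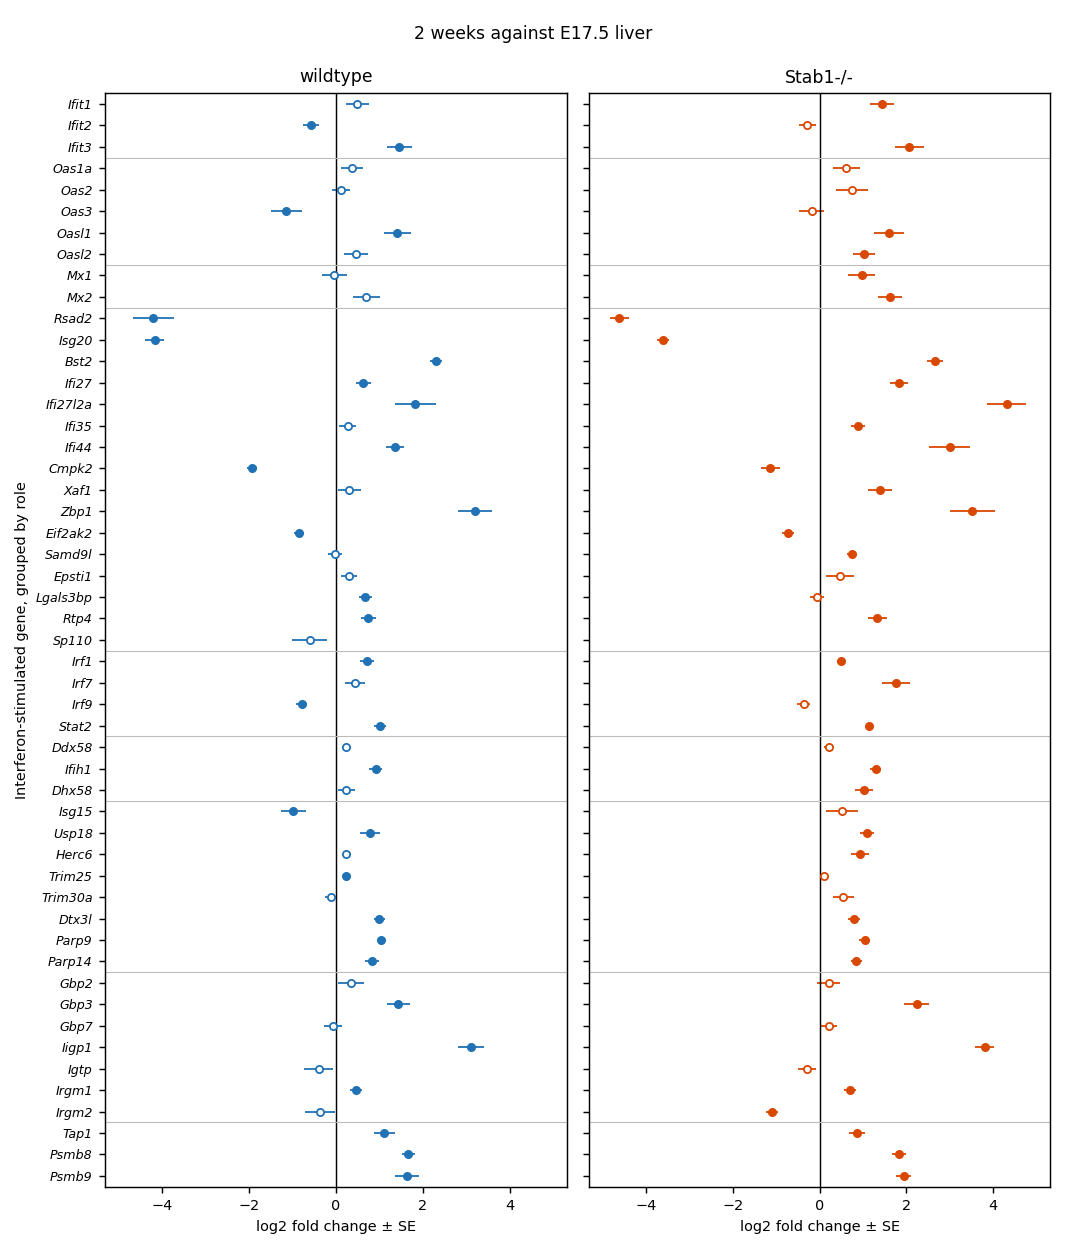
Fitted log2 fold change of 2 weeks against E17.5 (horizontal axis, bars ± SE) for each of the 51 genes in wildtype (left) and Stab1-/- livers (right), with filled circles for an adjusted p under 0.05. Rsad2 and Isg20 lie near -4 in both panels, and Iigp1 and Zbp1 beyond 3. Sp110 was not tested in Stab1-/- livers.

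Of the genes that rose in wildtype, 21 also rose in Stab1-/-, and Lgals3bp and Trim25 were called in wildtype alone. The 5 largest rises in wildtype were those of Zbp1, Iigp1, Bst2, Ifi27l2a and Psmb8. Zbp1 went from 0.467, 1.01, 1.7 and 0.235 RPKM at E17.5 to 6.2, 7.41, 7.48 and 3.77 at 2 weeks (log2 fold change 3.21 ± 0.39, adjusted p = 1.2e-05), and in Stab1-/- livers from 0.765, 1.44 and 0.0949 to 10.9, 9.65, 4.74 and 5.27. Iigp1 had 16.6, 20.7, 23.5 and 7.27 RPKM at E17.5 in wildtype and 14.7, 18.7 and 9.92 in Stab1-/- livers, and its fold rise was 8.62 in wildtype (log2 fold change 3.11 ± 0.30, adjusted p = 1.2e-06) and 13.9 in Stab1-/-. These ranges stayed far below those at 2 weeks. Bst2 rose from 27.2, 32.5, 35.1 and 21.5 to 111, 120, 108 and 105 RPKM in wildtype (log2 fold change 2.29 ± 0.14, adjusted p = 2.3e-08) and from 22.2, 27.3 and 27.9 to 139, 172, 108 and 140 in Stab1-/-. Ifi27l2a was at 5.02, 9.35, 5.5 and 1.94 RPKM in wildtype and 1.78, 1.19 and 3.92 in Stab1-/- livers at E17.5, with log2 fold changes by age of 1.83 ± 0.48 and 4.31 ± 0.45. Psmb8 changed by 1.66 ± 0.15 and 1.83 ± 0.17, and its partners in antigen processing, Psmb9 and Tap1, whose genes overlap, rose in either genotype too.

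The largest falls in wildtype were those of Rsad2, Isg20, Cmpk2, Oas3 and Isg15. Rsad2 had 68.5, 97.1, 39.5 and 16.3 RPKM at E17.5 and 2.88, 1.84, 2.89 and 1.68 at 2 weeks in wildtype, an 18.5-fold fall (log2 fold change -4.21 ± 0.47, adjusted p = 5.8e-06). In Stab1-/- livers it had 56, 94.1 and 81.9 at E17.5 and 2.79, 3.52, 2.6 and 2.01 at 2 weeks. The E17.5 values of wildtype spread widely, and even the lowest, in replicate 4, exceeded every 2-week value. Isg20 was at 2.35, 3.21, 5.92 and 2.9 RPKM in wildtype and 4.25, 5.25, 5.94 and 4.96 in Stab1-/- livers at 2 weeks, an 18.1-fold and 12.3-fold fall from E17.5. Cmpk2, the neighbour of Rsad2 on chromosome 12, went from 7.25, 7.26, 7.94 and 6.57 to its 2-week values in wildtype (log2 fold change -1.93 ± 0.12, adjusted p = 2.9e-08) and from 4.4, 7.25 and 6.51 in Stab1-/-. Oas3 and Isg15 fell by 1.15 ± 0.35 and 0.98 ± 0.28 on the log2 scale in wildtype. In Stab1-/- livers their log2 fold changes were -0.18 ± 0.29 and 0.51 ± 0.36, which did not pass. Isg15 had 24.7, 32.1, 26.8 and 10.6 RPKM in wildtype and 8.17, 24 and 12.2 in Stab1-/- livers at E17.5. Rsad2, Isg20, Cmpk2 and Eif2ak2 fell in either genotype.

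The branches were also followed with age. In the type I antiviral branch of wildtype livers, 2 of 10 rose (Ifit3 and Oasl1) and 2 fell (Ifit2 and Oas3), and the mean level of the branch, 0.45 ± 0.43 at E17.5 and 0.44 ± 0.18 at 2 weeks, moved by less than its spread. In Stab1-/- livers 6 of 10 rose (Ifit1, Ifit3, Oasl1, Oasl2, Mx1 and Mx2) and 0 fell by edgeR or DESeq2 (the 6 were also the members with an unadjusted p under 0.05), although Ifit2 was called lower under library totals and by limma with either pseudocount. The mean level went from 0.29 ± 0.33 to 1.01 ± 0.27. In the gamma-induced branch, Gbp3, Irgm1, Psmb8 and Psmb9 rose in either genotype, where the call of Irgm1 in wildtype was lost under library totals and by limma with either pseudocount, and Irgm2 fell in Stab1-/- alone (log2 fold change -1.09 ± 0.14, adjusted p = 3.1e-05). The branch means were 3.06 ± 0.52 and 3.50 ± 0.16 in wildtype, and 3.19 ± 0.25 and 3.84 ± 0.23 in Stab1-/- livers. The branch means rest on RPKM scaled to library totals. Under that scaling the median log2 fold change of all rows with age was -0.38 in wildtype and -0.24 in Stab1-/- livers. In the main fit the median log2 fold changes with age of the gamma-induced branch were 0.47 in wildtype and 0.70 in Stab1-/- livers. Those of the type I antiviral branch were 0.42 and 0.998, so the median of either branch was above 0 in either genotype. A call in 1 genotype and not in the other is no test of a difference. The interaction above is that test, and among the members it passed for Ifi27 only.

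Pathway genes around the family were read against the same background, which in wildtype was 34.9% rising and 37.0% falling and in Stab1-/- livers 36.8% falling. Of 6 further gamma-induced targets tested in wildtype, 5 rose and 1 fell, namely Socs1, which is also on the list of negative regulators. The T cell chemokine Cxcl9 was at 0.192 ± 0.111 RPKM at E17.5 and 2.18 ± 0.545 at 2 weeks (log2 fold change 3.82 ± 0.31, adjusted p = 3.1e-07). Nlrc5, the activator of MHC class I genes, had a log2 fold change of 2.59 ± 0.41. Of 6 negative regulators, 0 rose and 4 fell in wildtype and 6 fell in Stab1-/- livers, among them Socs1, the main inhibitor of interferon receptor kinases (log2 fold change -1.06 ± 0.35, adjusted p = 0.016). Of 6 receptor genes, Ifngr1 rose and Ifnlr1 and Il10rb fell in wildtype. Jak2, the kinase of the gamma receptor, fell (log2 fold change -1.45 ± 0.10, adjusted p = 6.3e-08) in wildtype.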

How the data were processed

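The authors sequenced total liver RNA and deposited, per gene and library, raw counts of uniquely mapped reads, RPKM scaled to the counted reads, and percent coverage of the gene model. The aligner, genome build, counting tool and strand setting are not given in the sources used here. A dash was read as 0. Depth was 9659 to 10964 per library in units of 1000 reads, which bounds the precision. Overlapping genes and near-identical copies may share or lose reads.

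Groups came from the sample labels. Members and lists were chosen with earlier results of these data known. Within each age, and between ages within each genotype, edgeR 4.0.16 (TMM scaling, its default filter on low counts at 10 reads and 15 in total, quasi-likelihood test) was fitted over all rows with Benjamini-Hochberg adjustment at 0.05. Scripts were tested on simulated data. Alternatives used DESeq2 1.42.0, limma 3.58.1 on log2(RPKM + 0.1) or log2(RPKM + 1), other scalings, no filter, GC-content offsets, a replicate block, all 15 libraries and leaving out each library.

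Values in every library are given for members called between genotypes, for the branch members and for the 5 largest rises and falls with age in wildtype. Other members are given by range or because their groups did not overlap, which was decided after their values were seen. Positions are those of GENCODE M21 and RefSeq on GRCm38. A signalling gene and the count over its list are not reported here.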

Additional observations from a re-analysis of the deposited data

Results flagged for a closer look

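Of 90 groups of 4 libraries examined, over the 28 members given in every library and the means of both branches, 6 held a library whose distance to its nearest neighbour took up most of the range of its group, where chance gives about 1 in 20. In the 2-week Stab1-/- group, replicate 2 was high for Ifit3 at 6.62 RPKM (next 4.72) and for Psmb8 at 40.4 RPKM (next 29.8), and replicate 4 was low for Oas2 at 1.43 RPKM (next 2.20). In the wildtype E17.5 group, replicate 4 was low for Ifit2 at 2.51 RPKM (next 3.69), and replicate 3 was high for Gbp2 at 8.86 RPKM (next 4.07) and for Psmb9 at 16.9 RPKM (next 8.76). The genotype effect on Ifi27 differed between the ages by 1.23 on the log2 scale in the test of the interaction.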

How the results depend on the processing

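The members called higher at 2 weeks, 3 of 51, numbered 7 by DESeq2, 5 without the filter, 5 with GC-content offsets and 0 to 6 when a library was left out, with Sp110 lower in each of these fits. Over all rows the higher calls were 119 of 12716 in the main fit, 429 by DESeq2, 197 of 17882 without the filter and 121 with GC-content offsets. They numbered 41 to 294 when a library was left out. Deviations of same-numbered libraries had correlations of 0.02 to 0.20 at 2 weeks, all above 0, and of -0.18 to 0.00 at E17.5. No label says that the numbers pair the animals, so they were not taken as pairs in the main fits. With a replicate block, which drops wildtype replicate 4 at E17.5, the count at 2 weeks was 10, and with the replicate block and GC-content offsets it was 9. Over all rows the block alone called 642 higher and 539 lower, in place of 119 and 221. Both together called 376 and 365. At E17.5 the count of lower members was 1 by DESeq2, 1 by limma on log2(RPKM + 0.1), 1 with all 15 libraries and 0 to 1 when a library was left out. Over all rows the lower calls were 23 in the main fit, 112 by DESeq2, 46 by this limma fit and 33 with all 15 libraries. They numbered 12 to 24 when a library was left out. Between ages in Stab1-/- livers 8 members fell by limma with either pseudocount, against 5. Over all rows 5896 and 5913 fell in these fits, against 4945. The members with a larger genotype effect at 2 weeks numbered 5 by DESeq2 and 0 to 2 when a library was left out, and those with a smaller effect 1 by DESeq2. Over all rows DESeq2 called 448 larger and 618 smaller, against 111 and 140 in the main fit. The larger calls over all rows numbered 5 to 373 when a library was left out. The median log2 fold change of the type I branch at E17.5 ran from -0.45 to 0.11 when a library was left out. The causes were not tested. No value named here reversed its sign where it had been called in these comparisons, except Trim25 with age under library totals. With 3 or 4 libraries per group, differences in genes with few reads, such as Sp110 and the interferon ligands, are limited by depth.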
